A study of Mus musculus with 17 samples.

Results

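Matrix metalloproteinases and their tissue inhibitors were examined in distant MC38 tumors after cryoablation of the tumor on the other side. The genes were chosen by name and are Mmp2, Mmp3, Mmp9, Mmp10, Mmp12, Mmp13, Mmp14, Timp1, Timp2 and Timp3, which are 10 of the 21931 genes in the table. MC38 is a mouse colon cancer cell line. It was implanted subcutaneously on both sides of wild-type C57BL/6J mice of 6 to 8 weeks. In the cryoablation group (Cryo, n = 8), one tumor was frozen on day 7 in 2 cycles of 20 s as the labels give them, and the contralateral tumor, which was not frozen, was collected 5 days later. The tumors of the control group (Con, n = 9) carry the same time label and came from mice that were not ablated. The methods of the paper give a longer freeze, and its text gives the sizes of the groups the other way round. The labels were followed, so every direction rests on them. The labels number the tumors but do not say that each came from a different mouse, so the p values measure the spread between these tumors.

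Metalloproteinases are zinc-dependent enzymes that cut collagens and other proteins of the extracellular matrix. Most are secreted as inactive proenzymes and are opened by other proteases, and the tissue inhibitors bind the active site of the opened enzyme. In tumors they are made by cancer cells, fibroblasts, macrophages, neutrophils and endothelium. They are known for matrix turnover, invasion and the release of growth factors. An mRNA level says nothing of how much enzyme was active.

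The tumors had 13524899 to 17898672 counts each, so that 3 counts corresponded to 0.168 to 0.222 CPM (the count relative to the tumor's total). Cryo tumors 2, 4 and 5 stood apart from the other 14 on the first principal component, at -25.5, -31.5 and -31.3 against -9.52 to 16.7. In these 3 tumors short genes were high relative to long genes. Each gene's log2 CPM was taken relative to its own mean over the 17 tumors. The median of 258 genes shorter than 1000 bases, less that of 4172 genes longer than 6000 bases, was 1.31, 1.27 and 1.62 in them and -0.87 to 0.65 in the others. Results that changed direction, lost a call or moved strongly without these tumors are given with and without them. Of the epithelial markers that would define colon cancer cells, Cdx2 had 0 counts in every tumor and Vil1 at most 11. Epcam had 8 to 127 counts, Cdh1 55 to 427, Krt8 and Krt18 0 to at most 609 and Krt19 6 to 949, with the 3 keratins highest in Cryo 5. The 7 markers summed to 16.5 to 96.4 CPM in control and 10.4 to 214 CPM in cryoablation tumors. The labels themselves call the cultured cells mesenchymal. In bulk tumors, fewer cells of a type and less RNA per cell cannot be told apart.

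All 10 genes were measured and passed the filter on low counts, and no difference between the groups passed the adjusted test. At an unadjusted p under 0.05, 1 of the 10 genes was higher in the cryoablation group (Timp1) and 0 were lower, against 4.91% of the 13005 genes tested (3.74% higher and 1.17% lower). The study called genes whose log2 fold change exceeded 1 in size while the unadjusted p was below 0.05. By that rule 0 of the 10 genes were called, against 0.492% of all genes (0.354% higher and 0.138% lower). With an adjusted p under 0.05 there were 0 calls over all 13005 genes (0.0%) by edgeR's quasi-likelihood test, where 639 had an unadjusted p under 0.05. The log2 fold change was positive for 5 of the 10 genes and negative for 5, with a median of -0.01, and the median of all genes was -0.01. The exact permutation test gave a p under 0.05 for 0 of the 10 genes, with p values from 0.183 to 0.650.

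**Figure D1:**
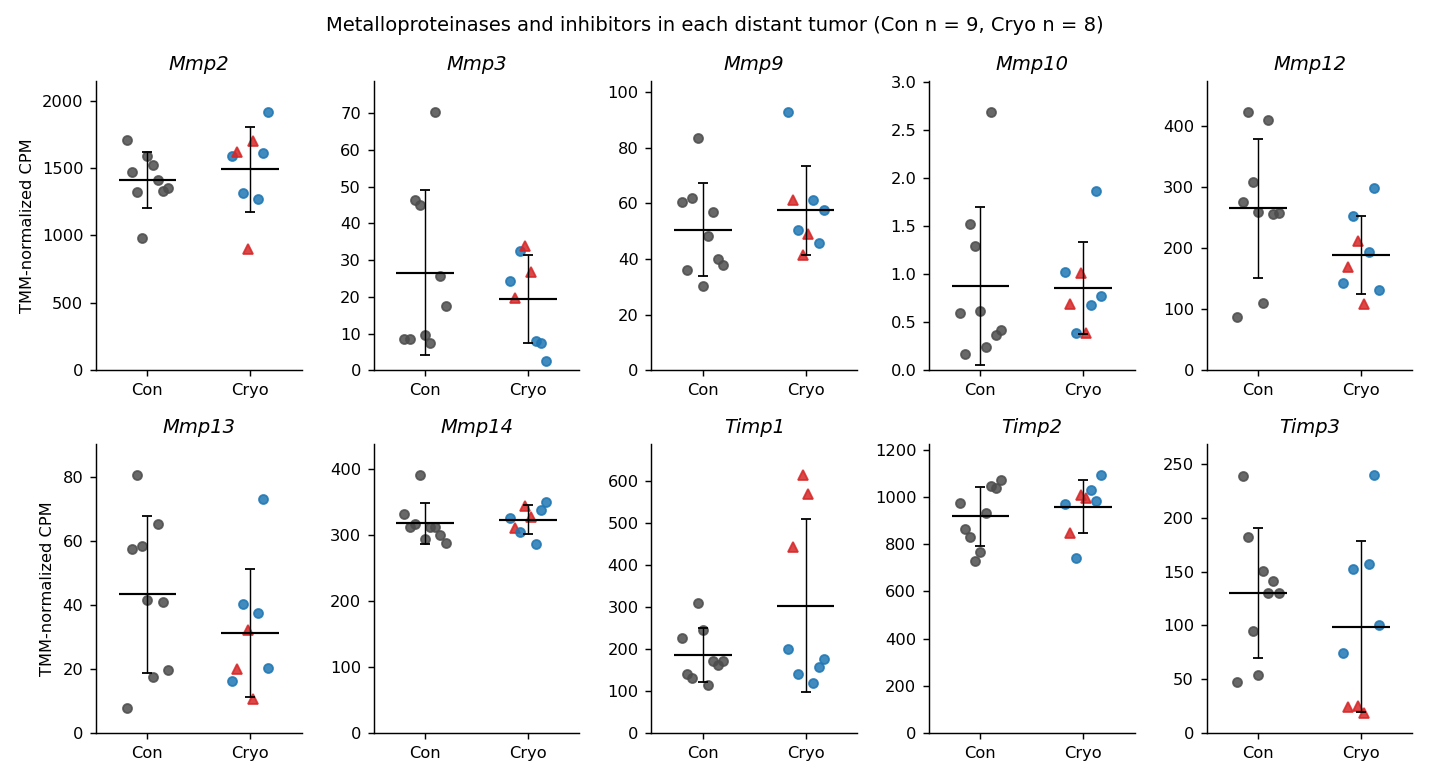
TMM-normalized CPM of the 10 genes in each tumor, with the control group in grey, the cryoablation group in blue and Cryo tumors 2, 4 and 5 as red triangles. Horizontal lines are group means and bars are SD (Con n = 9, Cryo n = 8). For each gene the 2 groups overlap, and the red triangles are the highest points for Timp1 and the lowest for Timp3.

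Per kilobase of gene length, the scale on which genes can be compared, Mmp2 was the most abundant of the 10 genes. Its mean was 429 ± 76.4 CPM per kb (SD, n = 17), which exceeded 99.2% of the genes tested. Timp1 (271 ± 175) and Timp2 (240 ± 30.4) followed, and Mmp2 was above Timp1 in 13 of 17 tumors while Timp1 was above Timp2 in 6. Without Cryo 2, 4 and 5 the order of the inhibitors turned, with Timp2 at 239.7 ± 32.4 and Timp1 at 198 ± 61.0 CPM per kb (SD, n = 14) and Timp2 above Timp1 in 11 of 14 tumors. Mmp14 (53.8 ± 4.39) was below Timp2 in 17 of 17 tumors and above Mmp12 (31.7 ± 13.7) in 15. Mmp9, Timp3, Mmp13 and Mmp3 had mean levels of 15.2, 14.2, 14.1 and 12.9 CPM per kb, and their order changed from tumor to tumor and without Cryo 2, 4 and 5. Mmp9 was above Timp3 in 9 of 17 tumors, Timp3 above Mmp13 in 10 and Mmp13 above Mmp3 in 8. Mmp10 was the lowest, at 0.503 ± 0.383 CPM per kb, and was below Mmp3 in 17 of 17 tumors.

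The genes also differed in how much they varied between tumors. From the lowest to the highest tumor, Mmp14 spanned 1.37-fold, Timp2 1.503-fold and Mmp2 2.13-fold. Only 2.18% of the genes tested had a smaller SD of log2 CPM than Mmp14, and 14.6% a smaller one than Timp2. Mmp3 spanned 28.1-fold, Mmp10 15.5-fold, Timp3 13.1-fold and Mmp13 10.4-fold. The SD of Mmp3 was larger than that of 98.96% of the genes tested, and that of Timp3 larger than that of 98.5%. The low end of Timp3 came from Cryo 2, 4 and 5, at 18.3 to 24.8 CPM. The other 14 tumors ran from 47.3 to 240 CPM, and no rank of the SD of Timp3 is given for them alone. The span of Mmp10 came from only 3 to 49 counts. With all tumors included, Mmp14 and Timp2 were thus among the steadier genes, and the stromelysins, the collagenase and Timp3 among the most variable.

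Mmp2, Mmp9 and Mmp14 are described first. Mmp2 and Mmp9 encode the gelatinases, which cut denatured collagen and the type IV collagen of basement membranes. Mmp14 encodes a membrane-bound enzyme that activates the Mmp2 proenzyme on the cell surface in a complex with Timp2. The table places Mmp2 at chr8:93553919-93580048, Mmp9 at chr2:164782700-164797770 and Mmp14 at chr14:54669069-54682821, all on the plus strand. The notes of the submitters name GRCm38 and mm10, but most positions in the table are not those of GRCm38, so the build is not given for these genes.

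Mmp2 ranged from 978 to 1711 CPM in the control group (median 1409) and from 901 to 1915 CPM in the cryoablation group (median 1602). The lowest and the highest tumor, Cryo 4 and Cryo 8, were both of the cryoablation group, and the groups overlapped over most of their range. Mmp2 averaged 1409 ± 207 CPM (SD, n = 9) and 1491 ± 314 CPM (SD, n = 8), a log2 fold change of 0.08 ± 0.14 (SE), with an adjusted p = 0.829. Mmp2 made up 61.8 to 84.5% of the summed level per kb of the 7 metalloproteinases in control tumors (median 77.5%) and 67.2 to 84.7% in the cryoablation group (median 78.5%).

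Mmp14 ranged from 289 to 392 CPM (median 313) in the control group and from 286 to 350 CPM (median 327) in the cryoablation group. The groups overlapped, and Con 4 was the highest. Cryo 4, 7 and 8 (345, 339 and 350 CPM) lay above the next control tumor, Con 1 at 332 CPM, and Cryo 6 was the lowest. For Mmp14 the log2 fold change was 0.03 ± 0.08 (SE), with an adjusted p = 0.899 by edgeR's quasi-likelihood test. The protein products meet in 1 complex, but no relation between the mRNA levels of these genes passed the adjusted test over 17 tumors. Pearson's r was -0.214 for Mmp2 with Mmp14 (rho 0.223, adjusted permutation p = 0.653 for r and 0.608 for rho). It was 0.244 for Mmp2 with Timp2 (rho 0.174, adjusted permutation p = 0.587 and 0.695) and -0.151 for Mmp14 with Timp2 (rho -0.06, adjusted permutation p = 0.792 and 0.916). The r depended on the tumors used. For Mmp2 with Mmp14 it was 0.771 without Con 4 and Cryo 4, the 2 tumors farthest from the median of Mmp2. Within the control and the cryoablation group it was -0.625 and 0.142 for this pair. It was -0.543 and 0.446 for Mmp14 with Timp2, and 0.364 and 0.123 for Mmp2 with Timp2.

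Mmp9, which neutrophils store in granules and macrophages also make, ranged from 30.2 to 83.3 CPM (median 48.2) in the control group. In the cryoablation group it ranged from 41.4 to 92.8 CPM (median 54.0). Tumor Cryo 1 was the highest, and 6 of 8 cryoablation tumors were above the control median. The log2 fold change of Mmp9 was 0.18 ± 0.19 (SE), with an adjusted p = 0.771, and it was 0.04 without Cryo 1. With limma voom and sample quality weights it was 0.49 (unadjusted p = 0.0124). The relation of Mmp9 to the neutrophil marker score, the mean log2 CPM of the markers that passed the filter, gave r = 0.257 (rho 0.157, adjusted permutation p = 0.554 for r and 0.728 for rho, n = 17). The r was 0.591 within the control group and -0.318 within the cryoablation group. Among the neutrophil markers 2 of 4 tested were called higher in the cryoablation group, against 0.354% of all genes tested. These 2 were S100a8 (1.34) and S100a9 (1.61). They had 0.99 and 1.40 without Cryo 2, 4 and 5 (unadjusted p = 0.118 and 0.0841 by edgeR) and 0.52 and 0.22 with voom, so that neither call held in those fits. With offsets for gene length they had 1.05 and 1.45 (unadjusted p = 0.0690 and 0.0425 by edgeR). Each had an unadjusted p under 0.05 in 16 of 17 fits without 1 tumor. Of the markers tested but not called, Csf3r had -0.51 and Retnlg 0.26 (unadjusted p = 0.242 and 0.709 by edgeR). The neutrophil markers were sparse, with Ly6g and Ngp at a median of 0 counts and summed levels of 7.89 to 68.4 CPM in control and 7.22 to 55.9 CPM in cryoablation tumors.

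Mmp13, Mmp12, Mmp3 and Mmp10 lie in this order on chromosome 9, on the plus strand and in a cluster with other metalloproteinase genes. Mmp13 is the main interstitial collagenase of the mouse, Mmp12 is the elastase of macrophages, and Mmp3 and Mmp10 are stromelysins, which cut a broad range of matrix proteins and open other proenzymes. The table places them at chr9:7272514-7283331, chr9:7344381-7369499, chr9:7445822-7455975 and chr9:7502353-7510241. AP-1, the Fos and Jun transcription factor, is a known regulator of several metalloproteinase promoters through the motif TGANTCA. This motif, which reads the same on both strands, was present in 4 of the 9 promoters listed by RefSeq (GRCm38.p6) for 8 of the 10 genes. It was present in 6.75% of 32851 promoters of the same 250 bases. Mmp2 and Mmp9 had no entry in the set of promoters used here, which does not show that RefSeq lists none. The 4 promoters with the motif were those of the 4 genes on chromosome 9, at chr9:7272264-7272513 (Mmp13), chr9:7347124-7347373 (the second of 2 starts of Mmp12), chr9:7445572-7445821 (Mmp3) and chr9:7502092-7502341 (Mmp10), all on the plus strand. They are shown because they share the motif near the same place, with its first base at -35, -44, -46 and -63 from the start, and capitals mark it.
Mmp13: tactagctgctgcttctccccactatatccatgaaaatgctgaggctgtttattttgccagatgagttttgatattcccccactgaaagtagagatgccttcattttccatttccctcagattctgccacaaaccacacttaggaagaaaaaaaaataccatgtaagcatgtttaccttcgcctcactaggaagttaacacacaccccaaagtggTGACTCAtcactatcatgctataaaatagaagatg
Mmp12: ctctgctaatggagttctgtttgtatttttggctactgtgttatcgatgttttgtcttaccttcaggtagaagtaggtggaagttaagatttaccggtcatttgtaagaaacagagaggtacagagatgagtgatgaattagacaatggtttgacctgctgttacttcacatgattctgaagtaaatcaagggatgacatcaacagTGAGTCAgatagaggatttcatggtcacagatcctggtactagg
Mmp3: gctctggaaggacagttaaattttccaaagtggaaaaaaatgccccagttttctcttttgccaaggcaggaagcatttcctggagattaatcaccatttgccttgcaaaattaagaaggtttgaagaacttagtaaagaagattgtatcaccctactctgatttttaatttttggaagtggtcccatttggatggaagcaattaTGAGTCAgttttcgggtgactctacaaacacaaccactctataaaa
Mmp10: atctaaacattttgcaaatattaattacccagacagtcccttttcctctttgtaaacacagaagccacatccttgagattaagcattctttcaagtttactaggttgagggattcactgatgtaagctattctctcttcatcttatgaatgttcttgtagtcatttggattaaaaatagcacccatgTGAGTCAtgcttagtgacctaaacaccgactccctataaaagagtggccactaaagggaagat
A match is a description of these letters and not evidence of binding. No motif was found in the promoters listed for Mmp14, Timp1, Timp2 and Timp3, nor at the first start of Mmp12, which says only that these letters are not in these windows.

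Mmp12 ranged from 87.2 to 424 CPM (median 260) in the control group and from 109 to 298 CPM (median 181) in the cryoablation group. In the cryoablation group 7 of 8 tumors were below the control median, but the groups overlapped, and the lowest tumor was Con 1. The means were 266 ± 114 CPM (SD, n = 9) and 189 ± 64.1 CPM (SD, n = 8). For Mmp12 this gave a log2 fold change of -0.49 ± 0.28 (SE), with an unadjusted p = 0.0948, an adjusted p = 0.728 and an exact permutation p = 0.222. With limma voom and sample quality weights the fold change was -0.71 (unadjusted p = 0.0108). Without 1 tumor, the unadjusted p was under 0.05 when Con 1, Con 6 or Cryo 7 was left out.

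Mmp13 ranged from 7.77 to 80.6 CPM (median 41.6) in the control group and from 10.6 to 73.1 CPM (median 26.2) in the cryoablation group. As for Mmp12, 7 of 8 cryoablation tumors were below the control median, and Con 1 was the lowest and Con 3 the highest of all tumors. Mmp13 had a log2 fold change of -0.47 ± 0.42 (SE), with an adjusted p = 0.753. Without Cryo 2, 4 and 5 it was -0.22, and without Cryo 7 it was -0.78.

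Mmp12 and Mmp13 rose and fell together across tumors, the closest of the 45 pairs among the 10 genes. Pearson's r of log2 CPM was 0.924 and Spearman's rho 0.924 (n = 17, permutation p = 1e-05 for each, the smallest that 100000 permutations can give, adjusted p = 0.000387 over 155 relations). It was 0.919 within the control group and 0.954 within the cryoablation group. It was 0.874 without the 2 tumors farthest from the median of Mmp12, and 0.912 without Cryo 2, 4 and 5 (adjusted permutation p = 0.00155). Of the other genes tested, Il1rn, the antagonist of the interleukin-1 receptor, was most like Mmp13 (r = 0.952) and next to Mmp13 most like Mmp12 (r = 0.889). Although Mmp12 is named for macrophages, its r with the macrophage marker score was 0.0507 (rho 0.167, adjusted permutation p = 0.939 for r and 0.717 for rho). The r was 0.460 within the control group and -0.659 within the cryoablation group, and without Cryo 2, 4 and 5 it was 0.266 (rho 0.512, adjusted permutation p = 0.613 and 0.336). Summed macrophage markers ranged from 816 to 2309 CPM in control and from 629 to 2987 CPM in cryoablation tumors, so mRNA of these markers was abundant in both groups. The 7 markers split, with 3 positive and 4 negative log2 fold changes, from Adgre1 at -0.69 to C1qa at 0.52. Adgre1 alone had an unadjusted p under 0.05 (0.0290 by edgeR, adjusted p = 0.728), against 4.91% of all genes tested. It was -0.64 without Cryo 2, 4 and 5 (unadjusted p = 0.0948) and -0.28 without Con 4.

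Mmp3 ranged from 7.53 to 70.4 CPM (median 17.5) in the control group and from 2.51 to 33.8 CPM (median 22.1) in the cryoablation group. The 3 highest tumors were controls (Con 7, Con 3 and Con 4), the lowest was Cryo 8, and both groups spread over the low range. The log2 fold change of Mmp3 was -0.46 ± 0.53 (SE), with an adjusted p = 0.782, and it was -0.14 without Con 7 and -0.84 without Cryo 2, 4 and 5. Mmp10 was detected with 3 to 49 counts, at 0.173 to 2.68 CPM (median 0.597) in the control group and 0.382 to 1.87 CPM (median 0.732) in cryoablation tumors. For Mmp10 the log2 fold change was -0.05 ± 0.48 (SE, adjusted p = 0.976), whereas its mean of log2 CPM was higher by 0.20 in the cryoablation group (exact permutation p = 0.650), so no direction is given. Mmp3 and Mmp10, which resemble each other in sequence, gave r = 0.376 over 17 tumors (rho 0.321, adjusted permutation p = 0.389 for r and 0.538 for rho), with 0.846 within the control group and -0.342 within the cryoablation group. Reads shared between similar genes could be assigned to either.

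The level of Mmp3 followed the adipocyte markers Adipoq, Plin1, Cfd and Cidec. With their mean log2 CPM it gave r = 0.809 and rho = 0.779 (n = 17, permutation p = 0.000130 and 0.000440, adjusted p = 0.00288 and 0.0119). The r was 0.857 within the control group, 0.944 within the cryoablation group and 0.740 without the 2 tumors farthest from the median score. Without Cryo 2, 4 and 5 it was 0.819 (adjusted permutation p = 0.0212). With the fibroblast score the r of Mmp3 was 0.673 over 17 tumors (rho 0.662, adjusted permutation p = 0.0413 for r and 0.0597 for rho). It was 0.913 within the control group, 0.244 within the cryoablation group and 0.516 without the 2 tumors farthest from the median score. This r was 0.784 without Cryo 2, 4 and 5 (adjusted permutation p = 0.0349). With the neutrophil score it was 0.689 (rho 0.623, adjusted permutation p = 0.0361 and 0.0891), and 0.532 without the 2 farthest tumors. In the other 14 tumors it was 0.682, which did not pass the adjusted test (adjusted permutation p = 0.110). With the macrophage score r was 0.575 and rho 0.750, of which only rho passed (adjusted permutation p = 0.115 and 0.0175). In the 14 tumors these were 0.570 and 0.802 (adjusted permutation p = 0.193 and 0.0235). Summed adipocyte markers ranged from 5.86 to 74.3 CPM in control and from 2.09 to 135 CPM in cryoablation tumors. Of these markers 1 of 4 tested (Cfd, 1.61) was called higher, against 0.354% of all genes tested. Cfd had 0.70 without Cryo 2, 4 and 5 (unadjusted p = 0.359 by edgeR) and 0.047 with voom. The genes most like Mmp3 were Thrsp (r = 0.913) and Lpl (r = 0.902), both genes of lipid metabolism, and Parm1 (r = 0.902). Whether fat or stroma beside the tumor contributed Mmp3 was not tested.

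**Figure D2:**
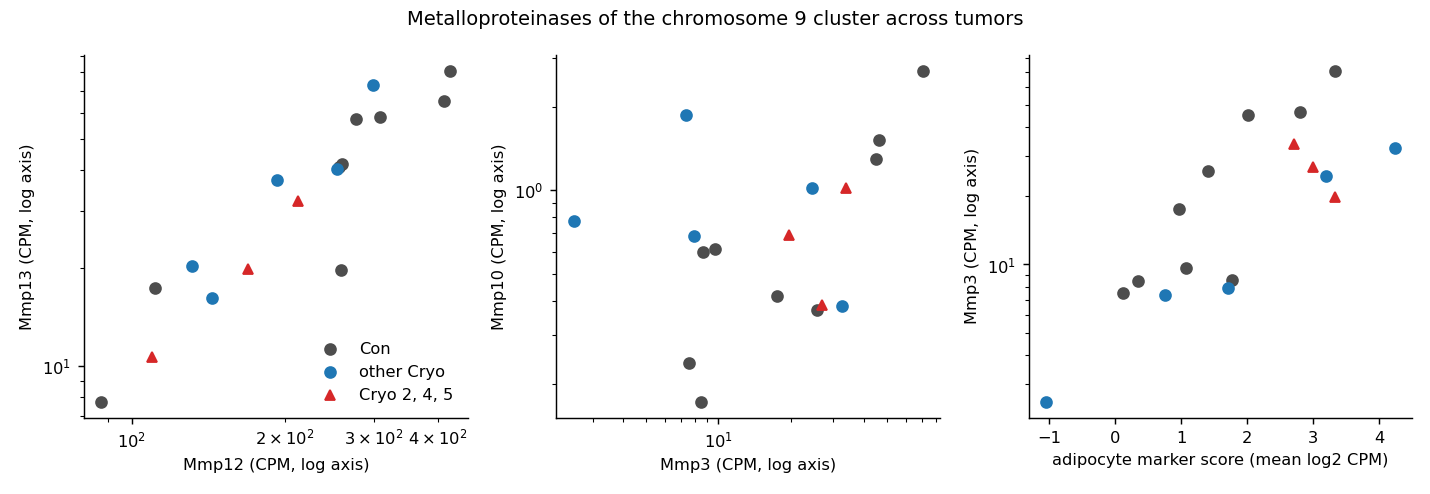
Mmp13 against Mmp12, Mmp10 against Mmp3 and Mmp3 against the adipocyte marker score in the 17 tumors, in CPM on log axes, with the score as mean log2 CPM. Points are tumors (grey control, blue cryoablation, red triangles Cryo 2, 4 and 5). Mmp12 and Mmp13 lie along 1 line (r = 0.924) and Mmp3 rises with the score (r = 0.809), whereas Mmp3 and Mmp10 scatter (r = 0.376).

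The inhibitors showed the only unadjusted call, and it rested on the 3 tumors that stood apart. Timp1 encodes a secreted inhibitor that cytokines induce, Timp2 an inhibitor that also takes part in Mmp2 activation, and Timp3 an inhibitor that binds to the matrix and also blocks ADAM17, which releases tumor necrosis factor. The table places Timp1 at chrX:20736405-20740974 (plus strand), Timp2 at chr11:118191895-118246566 (minus strand) and Timp3 at chr10:86136236-86185370 (plus strand). Timp1 overlaps Syn1 (68 to 131 counts per tumor) and Timp3 overlaps Syn3 (0 to 11 counts), both on the other strand, and Timp2 overlaps Cep295nl (49 to 95 counts) on its own strand. Mmp12 overlaps Mmp1b, on the other strand, which had 0 to 1 counts. The strandedness of the counting is not given in the sources used here.

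Timp1 ranged from 114 to 310 CPM (median 170) in the control group and from 120 to 614 CPM (median 188) in the cryoablation group. Cryo 2, 4 and 5 had 444, 614 and 569 CPM, above every control tumor, whereas the other 5 cryoablation tumors lay between 120 and 199 CPM, inside the control range. Group means were 185 ± 63.2 CPM (SD, n = 9) and 302 ± 206 CPM (SD, n = 8). This gave Timp1 a log2 fold change of 0.71 ± 0.33 (SE, 1.63-fold higher), with an unadjusted p = 0.0479, an adjusted p = 0.728 and an exact permutation p = 0.191. Without the 3 tumors it was -0.23 (unadjusted p = 0.291), and with offsets for gene length it was 0.18 (unadjusted p = 0.208). Leaving out 1 tumor gave 0.48 (without Cryo 4) to 0.82 (without Con 4), with an unadjusted p under 0.05 in 8 of 17 fits.

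Timp3 went the other way in the same 3 tumors. It ranged from 47.3 to 239 CPM (median 130) in the control group and from 18.3 to 240 CPM (median 87.0) in the cryoablation group. Cryo 2, 4 and 5 had 24.4, 24.8 and 18.3 CPM, below every control tumor, and the other 5 had 73.9 to 240 CPM. Group means were 130 ± 60.3 CPM (SD, n = 9) and 98.9 ± 79.7 CPM (SD, n = 8), and the fitted log2 fold change was -0.39 ± 0.46 (SE), with an adjusted p = 0.786. It was 0.15 without the 3 tumors (unadjusted p = 0.669) and -0.37 with offsets for gene length (unadjusted p = 0.353). Leaving out 1 tumor gave -0.72 (without Cryo 7) to -0.23 (without Cryo 5). The difference of mean log2 CPM was larger in size, at -0.76 (exact permutation p = 0.183).

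Timp2 ranged from 728 to 1073 CPM (median 933) in the control group and from 741 to 1095 CPM (median 989) in the cryoablation group. Cryo 2, 4 and 5 had 846, 1007 and 995 CPM, within the range of the control tumors. The log2 fold change of Timp2 was 0.06 ± 0.10 (SE), with an adjusted p = 0.828.

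The listed lengths of the 3 inhibitor genes are 888 bases for Timp1, 3896 for Timp2 and 8144 for Timp3, so Timp1 belongs to the short and Timp3 to the long genes of the score described above. Over the 14 tumors without Cryo 2, 4 and 5, the score of short minus long genes gave r = -0.947 with Timp3 (rho -0.916, permutation p = 1e-05 for each, adjusted p = 0.00155 for r). With Timp1 it gave r = 0.750 (rho 0.881, adjusted permutation p = 0.0626 for r and 0.00568 for rho), and with Timp2 r = -0.06 (rho 0.0330, adjusted permutation p = 0.934 for r and 0.972 for rho). The score sums up gene sets that hold Timp1 and Timp3, and it was added after the data were seen. A positive sign for Timp1 and a negative one for Timp3 were thus favored in advance, and their p values describe no independent test. How many other genes of these sets have a like r was not tested. Between Timp1 and Timp3, r was -0.729 and rho -0.842 in these 14 tumors, of which only rho passed the adjusted test (adjusted permutation p = 0.0790 and 0.0136). No pooled value is given over 17 tumors because 3 of them form a group of their own. The genes most like Timp3 over the 17 tumors, these 3 included, were Tut4 (r = 0.989), Styx (0.984) and Smurf1 (0.983), and those most like Timp1 were Vamp8, Cdk9 and Fkbp1a (0.976 to 0.978). Hemoglobin and other erythroid markers also moved with the group. Their summed level was 6.16 to 74.1 CPM in control and 24.8 to 173 CPM in cryoablation tumors, highest in Cryo 5. Of these markers 4 of 4 had an unadjusted p under 0.05, against 4.91% of all genes tested. Only Alas2 did without Cryo 2, 4 and 5 (0.80, unadjusted p = 0.00866 by edgeR). Hba-a1 went from 1.75 to 0.44, Hbb-bs from 1.54 to 0.52 and Hbb-bt from 1.45 to 0.97. With voom Hba-a1, Hbb-bs, Hbb-bt and Alas2 had 1.35, 1.65, 2.03 and 0.98 (unadjusted p = 0.00175, 0.000303, 3.49e-05 and 0.000157). With offsets for gene length they had 1.21, 1.07, 1.13 and 0.67. Each had an unadjusted p under 0.05 with these offsets and in 17 of 17 fits without 1 tumor. Summed epidermal markers reached 444 CPM in control and 664 CPM in cryoablation tumors, also highest in Cryo 5, with Krt1, Lor and Dsg1a at 0 in most tumors. Over 17 tumors the erythroid and epidermal scores passed the adjusted test of r with Timp1 and with Timp3, as did the macrophage score with Timp1 and the epithelial score with Timp3. Over the 14 tumors none of these did. In those, the erythroid score gave r = 0.585 with Timp1 (rho 0.635, adjusted permutation p = 0.193 and 0.238) and -0.602 with Timp3 (rho -0.516, adjusted permutation p = 0.167 and 0.336). The epidermal score gave 0.266 with Timp1 (rho 0.319, adjusted permutation p = 0.613 and 0.591) and -0.614 with Timp3 (rho -0.530, adjusted permutation p = 0.149 and 0.336). The macrophage score gave 0.675 with Timp1 (rho 0.521, adjusted permutation p = 0.110 and 0.336), and the epithelial score -0.381 with Timp3 (rho -0.508, adjusted permutation p = 0.461 and 0.336). What these markers contributed to the group values of Timp1 and Timp3 was not tested.

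**Figure D3:**
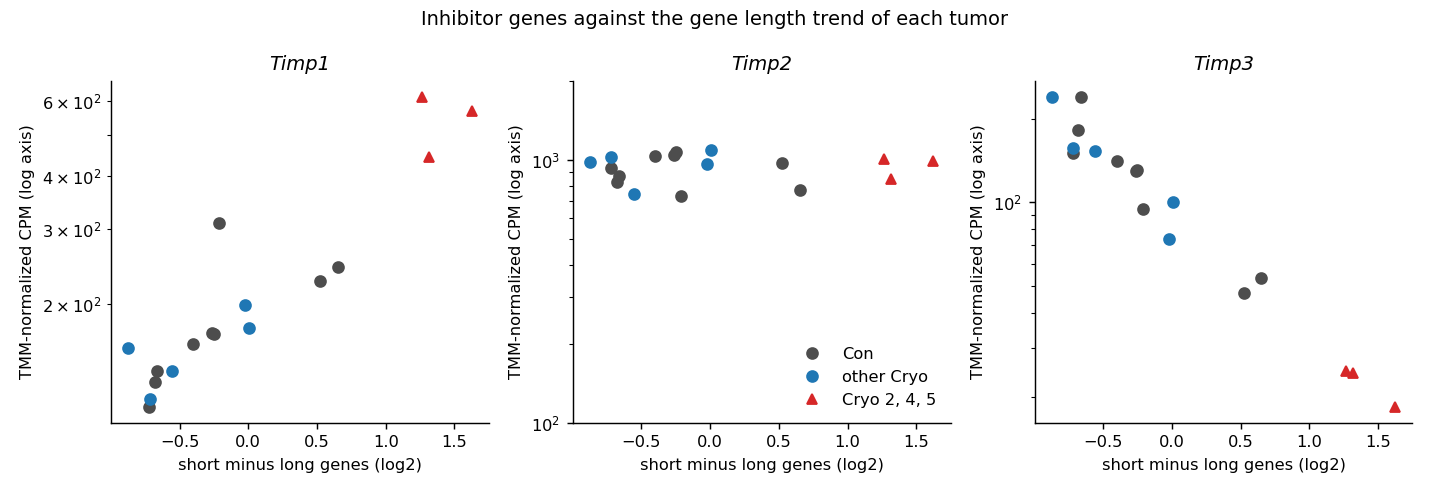
Level of the 3 inhibitor genes (CPM, log axis) against the log2 score of short minus long genes in the 17 tumors, with control in grey, cryoablation in blue and Cryo 2, 4 and 5 as red triangles. Among the 14 other tumors, r with the score is 0.750 for Timp1, -0.947 for Timp3 and -0.06 for Timp2. Timp1 is among the short and Timp3 among the long genes that make up the score.

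The makeup of the inhibitor mRNA differed accordingly. Timp1 made up 33.3 to 63.7% of the summed level per kb of the 3 inhibitors in control tumors (median 39.6%) and 32.2 to 72.6% in the cryoablation group (median 44.7%). The share of Timp3 was 1.13 to 7.19% (median 3.35%) and 0.251 to 6.43% (median 2.19%). The 3 highest shares of Timp1 and the 3 lowest of Timp3 were those of Cryo 2, 4 and 5. The ratio of Timp1 to Timp3 per kb ran from 5.34 to 44.0 in control tumors and was 167, 228 and 284 in these 3. The summed metalloproteinases over the summed inhibitors, per kb, were 0.858 to 1.51 in control tumors (median 1.22) and 0.417 to 1.43 in cryoablation tumors (median 1.198). Cryo 4, 5 and 2 were lowest (0.417, 0.675 and 0.821), followed by Con 4 (0.858). These ratios are given as descriptions with no test.

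**Figure D4:**
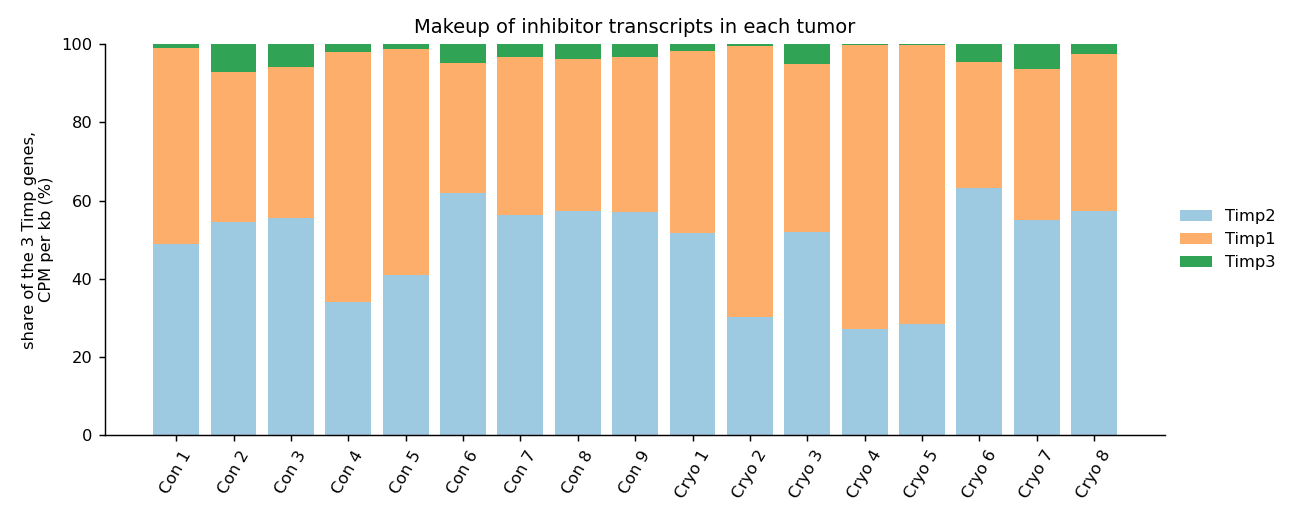
Share of Timp2, Timp1 and Timp3 in the summed level per kb of the 3 inhibitors, in percent, as 1 stacked bar for each of the 17 tumors. Timp1 makes up 69.4, 72.6 and 71.3% in Cryo 2, 4 and 5 and 32.2 to 63.7% in the other tumors.

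**Figure D5:**
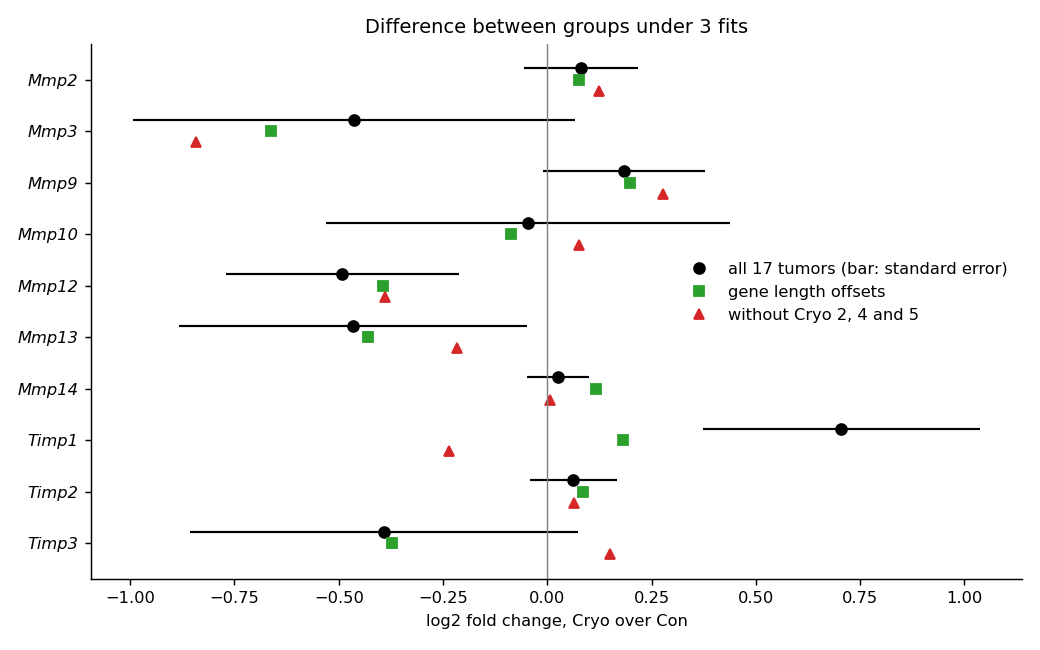
Log2 fold change of the cryoablation over the control group for the 10 genes, with all 17 tumors (black, bars are SE), with offsets for gene length (green) and without Cryo 2, 4 and 5 (red). Timp1 moves from 0.71 to 0.18 and -0.23 and Timp3 from -0.39 to 0.15 without the 3 tumors, whereas Mmp2, Mmp14 and Timp2 stay within 0.15 of 0.

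The remaining genes of the pathway were examined as whole lists. Of 16 other metalloproteinases 8 passed the filter, and 0 of 8 had an unadjusted p under 0.05 (median log2 fold change -0.30, all genes -0.01). The smallest p was that of Mmp19, at -0.45 ± 0.32 (SE, adjusted p = 0.734), and -0.14 without Cryo 2, 4 and 5. The collagenases Mmp1a and Mmp1b had at most 1 count in a tumor, Mmp20 had 0 in every tumor, Mmp7, an epithelial matrilysin, had at most 4 and Mmp27 had 1 to 42. Of the other inhibitors of matrix proteases, 0 of 4 tested had an unadjusted p under 0.05, and the smallest p was that of Tfpi2 (-0.20, adjusted p = 0.831). Tfpi2 ran from -0.33 without Cryo 4 to 0.11 without Con 4, so no direction is given. Timp4 did not pass the filter, with at most 16 counts.

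Over all genes tested, 4.91% had an unadjusted p under 0.05 (3.74% higher and 1.17% lower), the share to set beside the counts that follow. Among enzymes that act beside metalloproteinases, 2 of 8 ADAM sheddases had an unadjusted p under 0.05, and both were lower. They were Adam33 (-0.70 ± 0.29, SE) and Adam8 (-0.44 ± 0.21), each with an adjusted p = 0.728. They were, without Cryo 2, 4 and 5, -0.73 and -0.27 (unadjusted p = 0.0564 and 0.255). Of 12 ADAMTS proteases tested, Adamts14 was higher (0.21 ± 0.09) and Adamts2 lower (-0.21 ± 0.09) at that threshold, and both are procollagen N-proteinases. Without the 3 tumors they were 0.19 and -0.14 (unadjusted p = 0.0873 and 0.166). In the plasminogen system, whose product plasmin opens several proenzymes, 3 of 7 tested genes had an unadjusted p under 0.05. Serpine2, an inhibitor of serine proteases, had -0.62 ± 0.21 (unadjusted p = 0.00874, adjusted p = 0.728), Plau, which encodes urokinase, had -0.58 ± 0.23, and the plasminogen receptor Plgrkt had 0.31 ± 0.14. Without Cryo 2, 4 and 5 Serpine2 and Plau were -0.63 and -0.53 (unadjusted p = 0.0262 and 0.0448), and Plgrkt turned to -0.017 (unadjusted p = 0.864). None of these 7 genes had a log2 fold change beyond 1 in size, and each had an adjusted p = 0.728.

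The convertases, inducers and receptors of metalloproteinases (9 tested, smallest p for Bsg, 0.29, adjusted p = 0.728, and -0.061 without Cryo 2, 4 and 5) and the matrix-degrading cathepsins (4 tested, smallest p for Ctsb, -0.13, adjusted p = 0.771, and -0.24 without them) had 0 genes with an unadjusted p under 0.05. The 16 matrix substrates also had 0, with a median log2 fold change of -0.11, and the smallest p was that of Col1a1, the main chain of type I collagen (-0.58 ± 0.30, SE, adjusted p = 0.728). Without Con 4, the tumor with its highest count, Col1a1 was -0.28. Of 14 AP-1, ETS and related factors, Jund was called higher, and of 8 cytokines that induce metalloproteinases, Il6 was called higher. Over all genes tested 0.354% were called higher. Jund, a component of AP-1, had a log2 fold change of 1.19 ± 0.43 (SE, adjusted p = 0.728), and it was -0.15 without Cryo 2, 4 and 5. Il6, a cytokine of inflammation, had 2.30 ± 0.87 (SE, adjusted p = 0.728). It had 1 to 508 counts, the highest in Cryo 7, and it was -0.27 without that tumor.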

How the data were processed

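RNA sequencing of the distant tumors gave 9 control and 8 cryoablation samples, grouped by the deposited labels, and 0 columns were without a label. Per the labels, libraries were made from total RNA with a SMARTER mRNA-Seq kit. The aligner, counting program and strandedness are not given in the sources used here. The submitters' processing notes name GRCm38 and mm10. Start and end positions in the table equal those of GENCODE M21 (GRCm38) for 512 of 21827 shared genes. The authors deposited whole-number counts per gene, which are not normalized, and FPKM. The deposited FPKM equal the count over listed gene length and total for 100% of values (relative tolerance 1e-06) and were not used further. No pair of tumors had identical counts.

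The counts were tested with edgeR 4.0.16 (R 4.3.3; TMM, filterByExpr by group, quasi-likelihood F test, group as the only term), with Benjamini-Hochberg adjustment over 13005 genes. CPM are TMM-normalized. For single genes, an exact two-sided permutation test of log2 CPM (prior count 2) was added, which cannot give a p below 4.11e-05. Correlations used 100000 permutations and 155 relations (45 pairs of the 10 genes and 110 with 11 scores, of which the length score was added after the data were seen). The members and lists were chosen with earlier results of these data known. The genes named are the 10 members, called genes and the gene with the smallest p of each wider list, the 3 genes most like a member by r, and overlapping genes. Further list genes with an unadjusted p under 0.05 and genes with few counts were named after their values were seen. Promoters are 250 bases before RefSeq starts.

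Alternatives were limma 3.58.1 (voom, quality weights), the exact test of edgeR, DESeq2 1.42.0, upper-quartile normalization, other filters, gene length offsets (natural splines), a replicate block, each tumor left out and, added after the data were seen, Cryo 2, 4 and 5 left out together. The scripts were tested on simulated counts. Total counts of 13524899 to 17898672 limit the precision for low genes such as Mmp10. The values in CPM for 3 counts cover counting error only.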

Additional observations from a re-analysis of the deposited data

Results flagged for a closer look

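In 3 of the 20 sets formed by 10 genes and 2 groups, 1 tumor lay far from the rest of its group, where chance gives about 1 in 20. Mmp9 was 92.8 CPM in Cryo 1, and the next cryoablation tumor had 61.3 CPM. Mmp10 was 1.87 CPM in Cryo 7, and the next had 1.02 CPM. Mmp14 was 392 CPM in Con 4, and the next control tumor had 332 CPM.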

How the results depend on the processing

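Each tumor left out in turn gave 34 to 165 called genes over all genes (64 with all tumors), 15 to 93 higher (46) and 4 to 74 lower (18), with 34 without Cryo 5, 165 without Cryo 3 and 4 lower without Con 4. Called genes numbered 432 without a filter (222 higher, 210 lower), 39 with length offsets (17 higher) and 33 with the replicate block (13 higher). Voom gave 10 higher and 69 lower, and leaving out Cryo 2, 4 and 5 gave 7 higher and 50 lower. With an adjusted p under 0.05 there were 0 genes in each of these fits. Of the 10 genes, 1 had an unadjusted p under 0.05, against 2 with voom, 0 with upper-quartile normalization, length offsets, the replicate block or without Cryo 2, 4 and 5, and 0 to 2 with 1 tumor left out. The direction reversed for Mmp10 to 0.31 with voom, 0.089 with the block, 0.070 without Cryo 3, 0.05 without Cryo 5 and 0.075 without Cryo 2, 4 and 5 (range with 1 tumor left out -0.33 to 0.070). Without these 3 tumors it reversed for Timp1 (-0.23, difference of mean log2 CPM -0.18) and Timp3 (0.15, difference 0.20). The causes were not tested. Whether replicate numbers pair the tumors was not settled, since no chance rate was computed for the check. In it, 5 of 8 same-numbered pairs had deviations correlated above 0.1 (range -0.645 to 0.787). Of the control tumors, 3 of 8 correlated best with their own number. The block used 8 pairs. Mmp10 fell below the filter without Con 3, Con 4 or Con 7. Among the alternative values for single genes, 440 kept direction and side of the threshold, 13 lost the threshold and 5 gained it. Mmp10, with as few as 3 counts, is limited by depth.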
